A study of Homo sapiens with 4 samples.

Results

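The enzymes of cholesterol and fatty acid synthesis, with the proteins that control them, were followed in HuH7 cells, a human hepatocellular carcinoma line, after knockdown of MKL1 and MKL2. The members are 30 listed genes of the SREBP pathway. A member counted as measured where a probe of the array named that gene alone, and of several such probes the brightest on average was taken. This gave 28 measured members among 18417 genes tested. FDFT1, squalene synthase, was not analysed here, and HSD17B7, a sterol ketoreductase, was read only by a probe that also lists its pseudogene. The series holds 2 control arrays, from cells that stably expressed a negative control shRNA, and 2 knockdown arrays, from cells that stably expressed shRNA against MKL1 and MKL2 from the pLKO.1 vector. All 4 cultures were infected with lentivirus, selected with puromycin for 7 days, grown in 10% serum and kept below passage 10. The labels name no hairpin sequence and do not say whether the replicates came from separate infections, so the p-values measure only the spread between these arrays. Values are log2 expression on 1-colour arrays, and because brightness depends on the probe, levels are compared between arrays and never between genes.

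Cholesterol is built from acetyl-CoA through mevalonate, isoprenoid pyrophosphates, squalene and lanosterol, and the liver is a main site of this synthesis. Most genes of the route are switched on by the SREBP transcription factors, which lie in the endoplasmic reticulum membrane bound to SCAP and are held there by INSIG proteins while sterols are plentiful. When sterols run low, SCAP carries SREBP to the Golgi, where proteases release its active part. SREBP-2, from SREBF2, acts mostly on cholesterol genes and SREBP-1c, from SREBF1, mostly on fatty acid genes. MKL1 and MKL2, now named MRTFA and MRTFB, are coactivators of serum response factor (SRF), which binds CArG boxes.

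The 28 genes lay lower in one knockdown array and spread to both sides of the controls in the other. In knockdown replicate 1, 22 of them read below both control arrays, 3 above both and 3 between. In knockdown replicate 2, 13 read below both, 14 above both and 1 between. Over all genes tested, 37.4% read below and 42.8% above both controls in replicate 1, and 40.1% and 36.4% in replicate 2. The arrays measured bulk RNA, in which fewer cells of a kind and less RNA per cell cannot be told apart. The median difference from the control mean over the 28 genes was -0.25 in replicate 1 and 0.0055 in replicate 2, against 0.017 and -0.0079 over all genes. Replicate 2 read higher than replicate 1 for 25 of the 28 genes, compared with 47.6% of all genes. The control arrays were close, with a median absolute difference of 0.052 over the 28 genes, against 0.28 between the knockdown arrays (0.091 and 0.14 over all genes).

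No member passed limma's test over all genes at an adjusted p of 0.05, and the smallest adjusted p was 0.119, for CYP51A1. Of all 18417 genes, 0.174% passed, 0.0923% lower and 0.0814% higher. At an unadjusted p under 0.05 in limma, 7 members (25.0%) were lower and none higher, compared with 8.04% of all genes lower and 6.25% higher. The groups did not overlap for 12 members with the knockdown lower and 3 with it higher, against 23.0% and 22.5% of all genes, and they overlapped for 13. The median group difference (knockdown minus control) of the 28 genes was -0.14, against 0.0082 over all genes. The list was chosen with earlier results of these arrays known, so these counts describe it and are no test of it.

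**Figure D1:**
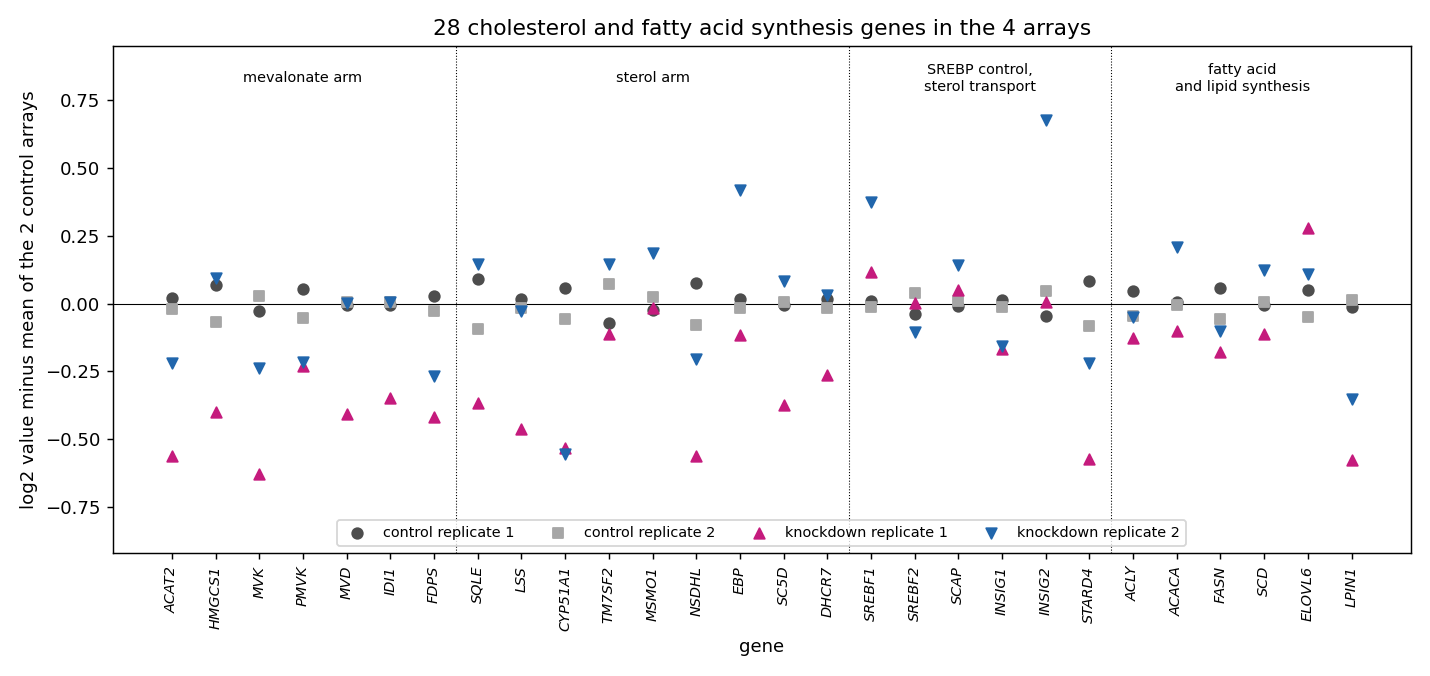
Log2 value of each of the 28 measured genes in the 4 arrays, minus the mean of its 2 control arrays, ordered by role in the pathway. Knockdown replicate 1 (upward triangles) lies below both controls for 22 genes (37.4% of all genes). Replicate 2 (downward triangles) lies below both for 13 (40.1%) and above both for 14 (36.4%).

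Brighter probes as a whole read somewhat lower in knockdown replicate 1, and the members' probes are bright. The mean over 4 arrays ran from 6.53 to 11.81 over the members, and 8448 genes lie in that range. Their median level, 7.86, is below the members' 8.69, so the range matches the members' brightness only in part. Of these 8448 genes, 51.5% read below both controls in replicate 1 and 44.2% in replicate 2, and 59.6% read higher in replicate 2 than in replicate 1. Their median difference from the control mean was -0.058 in replicate 1 and -0.018 in replicate 2. In that range 12.3% of genes were lower at an unadjusted p under 0.05, 7.04% higher, and 32.8% had no overlap with the knockdown lower. Quantile normalization, which gives the 4 arrays the same distribution, left the members' median at -0.24 in replicate 1 and 0.013 in replicate 2.

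**Figure D2:**
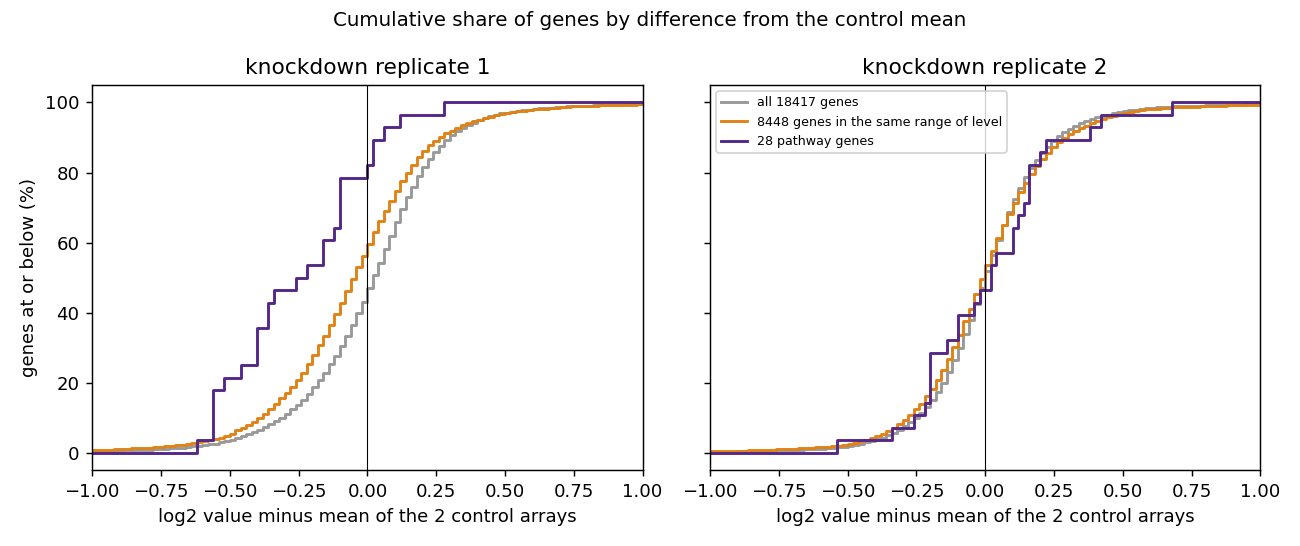
Share of genes (percent) at or below each log2 difference from the control mean, for knockdown replicate 1 and replicate 2. The curve of the 28 pathway genes lies left of both background curves over most of the range in replicate 1, with a median of -0.25. In replicate 2 it crosses them, with a median of 0.0055. There it stands at 28.6% at a difference of -0.2 (all genes 15.1%) and at 57.1% at 0.08 (all genes 68.8%).

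The probes that list the targeted transcripts, and that of SRF, lay below both controls in both knockdown arrays. The one probe that lists MRTFA, together with RBM15, read 7.77 and 7.80 in the controls, 6.81 in knockdown replicate 1 and 6.91 in replicate 2. MRTFB read 7.20 and 7.22 in the controls, 6.84 in replicate 1 and 7.11 in replicate 2 (log2 difference -0.23, SE 0.12, limma adjusted p = 0.448). SRF read 9.80 and 9.97 in the controls, 9.37 in replicate 1 and 9.52 in replicate 2. All of these probes thus read lowest in replicate 1. The gap between the knockdown arrays was 0.27 for MRTFB, 0.15 for SRF and smaller for the MRTFA probe, against a median absolute gap of 0.14 over all genes. The part of this in the pathway genes was not tested. Of 7 hepatocyte markers 6 were measured, with a mean log2 value of 11.46 and 11.44 in the controls, 11.45 in knockdown replicate 1 and 11.37 in replicate 2. ALB and AMBP lay above both controls in both knockdown arrays (0.16 and 0.18), AFP, FGB and APOA2 below (-0.31, -0.18 and -0.093), and APOH overlapped. AFP, the fetal counterpart of albumin, was lower at an unadjusted p under 0.05 (SE 0.0984, limma adjusted p = 0.25), and HNF4A was not analysed here.

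Most endothelial and leukocyte markers read higher in knockdown replicate 1, the array in which the pathway genes lay low. In that array 4 of 5 measured endothelial and 4 of 5 measured leukocyte markers read above both controls, and 2 of 6 fibroblast and stellate cell markers did, against 42.8% of all genes. That share was 32.9% for genes in the members' brighter range of level, so it was above 42.8% for the genes outside it. Most of these markers are dimmer than that range, with a median level of 4.78 for the endothelial and 5.29 for the leukocyte markers. In replicate 2 it was 2, 2 and 4, against 36.4% of all genes. The mean of the endothelial markers was 4.98 and 4.89 in the controls, 5.19 in replicate 1 and 4.86 in replicate 2. That of the leukocyte markers was 6.68 and 6.70 in the controls, 6.97 in replicate 1 and 6.68 in replicate 2. The fibroblast and stellate cell markers had means of 5.40 and 5.51 in the controls, 5.40 in replicate 1 and 5.60 in replicate 2. From the control mean, CD68 lay at 0.59 in replicate 1 and -0.36 in replicate 2, TEK at 0.47 and 0.026, PTPRC at 0.43 and 0.17, PECAM1 at 0.40 and -0.27, and VWF at 0.32 and 0.028. The others lay nearer in replicate 1: LYZ at 0.15 and -0.080, CD3E at 0.14 and 0.16, CDH5 at 0.11 and 0.10, ITGAM at 0.11 and 0.054, and KDR at -0.022 and -0.25. PTPRC, the pan-leukocyte marker CD45, was the one higher at an unadjusted p under 0.05 (log2 difference 0.30, SE 0.118, limma adjusted p = 0.327). It read 2.78 and 2.80 in the controls, 3.22 in replicate 1 and 2.96 in replicate 2. All 4 values lie under the lower quartile of their array (3.99 to 4.02). Whether these transcripts are present cannot be told from brightness, which depends on the probe, and their part in the results was not tested.

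Nearly all members with a promoter sequence hold an Sp1 box there (25 of 26), 19 hold a CCAAT box and 3 a sterol core, and 5 promoters are shown because they set genes that lay low beside genes that did not. RefSeq promoter windows (GRCh38.p14, from 250 bases before to 50 after the annotated start) were found for 26 of the 30 listed genes, in 37 windows. Both strands were searched for the sterol regulatory element TCACNCCAC, its shorter core TCACNCCA (which lies within it), the CCAAT box bound by NF-Y, the Sp1 box GGGCGG, the E-box CACGTG and the CArG box. The bases before the start are printed 5′ to 3′ on the gene's strand, with every match in capitals, a CCAAT box on the other strand appearing as ATTGG and an Sp1 box as CCGCCC.
MVK promoter, chr12:109573544-109573793, plus strand: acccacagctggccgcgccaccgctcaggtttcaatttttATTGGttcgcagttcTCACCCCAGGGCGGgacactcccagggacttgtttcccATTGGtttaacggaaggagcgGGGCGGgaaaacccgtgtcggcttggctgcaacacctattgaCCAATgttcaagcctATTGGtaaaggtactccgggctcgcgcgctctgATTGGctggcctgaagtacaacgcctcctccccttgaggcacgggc
STARD4 promoter, chr5:111512536-111512785, minus strand: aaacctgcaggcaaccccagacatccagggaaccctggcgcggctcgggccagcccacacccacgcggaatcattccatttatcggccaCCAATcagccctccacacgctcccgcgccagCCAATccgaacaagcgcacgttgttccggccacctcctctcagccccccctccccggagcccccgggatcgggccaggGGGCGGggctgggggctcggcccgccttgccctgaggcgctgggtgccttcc
CYP51A1 promoter, chr7:92134478-92134727, minus strand: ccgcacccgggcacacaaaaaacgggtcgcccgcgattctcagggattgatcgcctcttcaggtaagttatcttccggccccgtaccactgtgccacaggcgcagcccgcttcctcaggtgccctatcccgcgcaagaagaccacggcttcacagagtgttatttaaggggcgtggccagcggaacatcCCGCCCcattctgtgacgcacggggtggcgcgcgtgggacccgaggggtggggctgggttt
MSMO1 promoter, chr4:165327419-165327668, plus strand: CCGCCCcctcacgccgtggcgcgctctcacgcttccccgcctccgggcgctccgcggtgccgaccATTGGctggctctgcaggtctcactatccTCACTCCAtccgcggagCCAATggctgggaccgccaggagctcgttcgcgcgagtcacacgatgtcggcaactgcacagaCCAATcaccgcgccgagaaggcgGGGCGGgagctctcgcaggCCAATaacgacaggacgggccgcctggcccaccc
SREBF2 promoter, chr22:41832855-41833104, plus strand: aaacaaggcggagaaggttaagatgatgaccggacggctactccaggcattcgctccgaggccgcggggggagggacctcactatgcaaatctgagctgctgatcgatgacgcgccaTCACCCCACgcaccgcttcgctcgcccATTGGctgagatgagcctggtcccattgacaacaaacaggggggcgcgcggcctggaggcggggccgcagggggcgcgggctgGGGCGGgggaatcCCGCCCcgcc

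MVK, with the shorter core directly followed by an Sp1 box and with 5 CCAAT boxes, lay low in both knockdown arrays, and so did STARD4, with 2 CCAAT boxes and no match to the core. CYP51A1, with 1 Sp1 box and neither a CCAAT box nor the core in this window, also lay low in both arrays. Its distance from the control mean was alike in the knockdown arrays, at -0.53 and -0.55. MSMO1, with the shorter core and 4 CCAAT boxes, lay between its controls in replicate 1 and above both in replicate 2 (-0.015 and 0.18 from the control mean). SREBF2, the one member with the full sterol element, lay between its controls in replicate 1 and below both in replicate 2 (0.0027 and -0.10).

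Among the 37 member windows, 62.2% hold a CCAAT box, against 34.6% of 35116 windows of all genes, and 89.2% hold an Sp1 box, against 45% of all. The full sterol element is in 1 of 37 (1.13% of all windows), the shorter core in 3 (3.95%), the E-box in 5 (7.26%) and the CArG box in 0 (1.29%). Of the 25 measured members with a window, 18 hold a CCAAT box in at least 1 window. In knockdown replicate 1, 16 of these 18 read below both controls, with a median of -0.31 from the control mean, and 3 of the 7 without a CCAAT box did, with a median of 0.0055. In replicate 2 it was 8 of 18 and 3 of 7, with medians of 0.0055 and 0.11. Over all genes tested, 40.7% of those with a CCAAT box and 37.8% of those without read below both controls in replicate 1. In replicate 2 it was 41.3% and 40.5%. Of genes in the members' range of level, whatever their promoter, 51.5% did so in replicate 1 and 44.2% in replicate 2. The 7 without one are the enzymes PMVK, CYP51A1, ELOVL6 and LPIN1 and the control proteins SREBF1, SCAP and INSIG2. A match is a string of letters and no measured binding site.

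The mevalonate arm, which makes the isoprenoid units, was lower in knockdown replicate 1 for all 7 measured genes. Each of them lay below both controls there, as did 37.4% of all genes. The arm's median difference from the control mean was -0.41 in replicate 1 and -0.22 in replicate 2. In replicate 2, 4 of the 7 genes lay below both controls as well (40.1% of all genes). At an unadjusted p under 0.05 in limma, 3 were lower, namely ACAT2, MVK and FDPS (8.04% of all genes). ACAT2, the cytosolic thiolase that joins acetyl-CoA units, read 10.04 and 9.99 in the controls, 9.45 in knockdown replicate 1 and 9.80 in replicate 2. Its log2 difference was -0.39 (SE 0.135, limma adjusted p = 0.28). MVK, mevalonate kinase, read 7.95 and 8.01 in the controls, 7.35 in replicate 1 and 7.74 in replicate 2. Both knockdown arrays thus lay below both controls for both genes, and the distance was over 2 times as large in replicate 1. The log2 difference of MVK was -0.43 (SE 0.145, limma adjusted p = 0.27).

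FDPS, farnesyl pyrophosphate synthase, read 8.88 and 8.83 in the controls, 8.44 in knockdown replicate 1 and 8.58 in replicate 2. The groups did not overlap, and the log2 difference was -0.34 (SE 0.102, limma adjusted p = 0.229). FDPS has pseudogene copies, and 2 further probes that list it with FDPSP2 lay at -0.27 and -0.23. PMVK, phosphomevalonate kinase, read 6.70 and 6.59 in the controls, and its knockdown arrays read alike, at 6.41 and 6.43 (log2 difference -0.22, SE 0.097, limma adjusted p = 0.37).

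The other 3 genes of this arm lay low in replicate 1 alone. HMGCS1, which makes HMG-CoA, read 10.94 and 10.80 in the controls, 10.47 in replicate 1 and 10.97 in replicate 2, above both controls. MVD, mevalonate diphosphate decarboxylase, read 8.67 and 8.68 in the controls, 8.27 in replicate 1 and 8.68 in replicate 2, and IDI1, the isomerase of isopentenyl diphosphate, lay at -0.35 from its control mean in replicate 1 and at 0.0075 in replicate 2. For HMGCS1, MVD and IDI1 the groups overlapped, and the log2 differences of -0.15, -0.20 and -0.17 did not pass (limma adjusted p from 0.602 to 0.753).

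In the sterol arm, from squalene to cholesterol, 8 of 9 measured genes lay below both controls in knockdown replicate 1 (37.4% of all genes). In replicate 2, 3 lay below both (40.1% of all genes) and the other 6 above both (36.4%). The exception in replicate 1 was MSMO1, between the controls. CYP51A1, lanosterol demethylase, had the largest group difference of all 28 genes. It read 9.96 and 9.85 in the controls, 9.37 in replicate 1 and 9.35 in replicate 2, so the 2 knockdown arrays read alike and well below the controls. The log2 difference was -0.54 (95% interval -0.78 to -0.31, SE 0.0975), a ratio of 0.686, with an unadjusted p of 0.00133 and a limma adjusted p of 0.119. A second CYP51A1 probe read 8.41 and 8.34 in the controls, 7.66 in replicate 1 and 7.50 in replicate 2, a log2 difference of -0.79.

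NSDHL, which acts after CYP51A1 and MSMO1 in the removal of methyl groups from sterols, read 8.78 and 8.62 in the controls, 8.14 in replicate 1 and 8.49 in replicate 2 (log2 difference -0.38, SE 0.144, limma adjusted p = 0.314). LSS, lanosterol synthase, read 8.51 and 8.48 in the controls, 8.03 in replicate 1 and 8.47 in replicate 2, just below the lower control. NSDHL, LSS and CYP51A1 are the 3 of 9 measured genes of this arm with no overlap and the knockdown lower. That share was 23.0% over all genes and 32.8% over genes in the members' range of level.

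The remaining sterol genes lay on opposite sides of the controls in the knockdown arrays or close to them. SQLE, squalene epoxidase, read 9.93 and 9.74 in the controls, 9.47 in replicate 1 and 9.98 in replicate 2. EBP, a sterol isomerase, read 9.17 and 9.14 in the controls, 9.04 in replicate 1 and 9.57 in replicate 2. SC5D, the sterol desaturase, read 9.90 and 9.91 in the controls, 9.53 in replicate 1 and 9.99 in replicate 2. For each of these genes, replicate 1 was the lowest and replicate 2 the highest of the 4 arrays. The group differences of SQLE, EBP and SC5D were -0.11, 0.15 and -0.15, with limma 95% intervals that include 0. DHCR7, which makes cholesterol from 7-dehydrocholesterol, lay at -0.26 from its control mean in replicate 1 and at 0.032 in replicate 2. TM7SF2, a sterol reductase, had a log2 difference of 0.018 and MSMO1, the methylsterol monooxygenase, of 0.085. The probe shared by HSD17B7 and HSD17B7P2 read 6.85 and 6.78 in the controls, 6.29 in replicate 1 and 6.67 in replicate 2, and its signal cannot be given to either gene.

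The control proteins did not share one direction. SREBF2 read 9.05 and 9.12 in the controls, 9.09 in knockdown replicate 1 and 8.98 in replicate 2, a log2 difference of -0.051 with a limma 95% interval from -0.29 to 0.19. SCAP, the escort protein, read 8.64 and 8.65 in the controls, 8.70 in replicate 1 and 8.79 in replicate 2 (0.097, interval -0.14 to 0.33). SREBF2 thus overlapped its controls, and SCAP lay just above them. SREBF1 read 7.50 and 7.48 in the controls, 7.61 in replicate 1 and 7.87 in replicate 2, above both controls in both arrays (log2 difference 0.25, SE 0.117, limma adjusted p = 0.407).

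The INSIG proteins, the retention anchors, lay on different sides. INSIG1, itself an SREBP target, read 8.29 and 8.26 in the controls and 8.11 and 8.12 in the knockdown arrays, a small and even difference of -0.16 (SE 0.0921, limma adjusted p = 0.49). INSIG2 read 6.47 and 6.56 in the controls and 6.52 in replicate 1, but 7.19 in replicate 2, so its group difference of 0.34 (SE 0.214, limma adjusted p = 0.532) comes from 1 array. It had the largest gap between the knockdown arrays of all 28 genes, 0.67. STARD4, which carries sterols through the cytosol, read 7.14 and 6.97 in the controls, 6.48 in replicate 1 and 6.84 in replicate 2 (log2 difference -0.40, SE 0.145, limma adjusted p = 0.302), lower in both arrays like MVK and ACAT2.

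**Figure D3:**
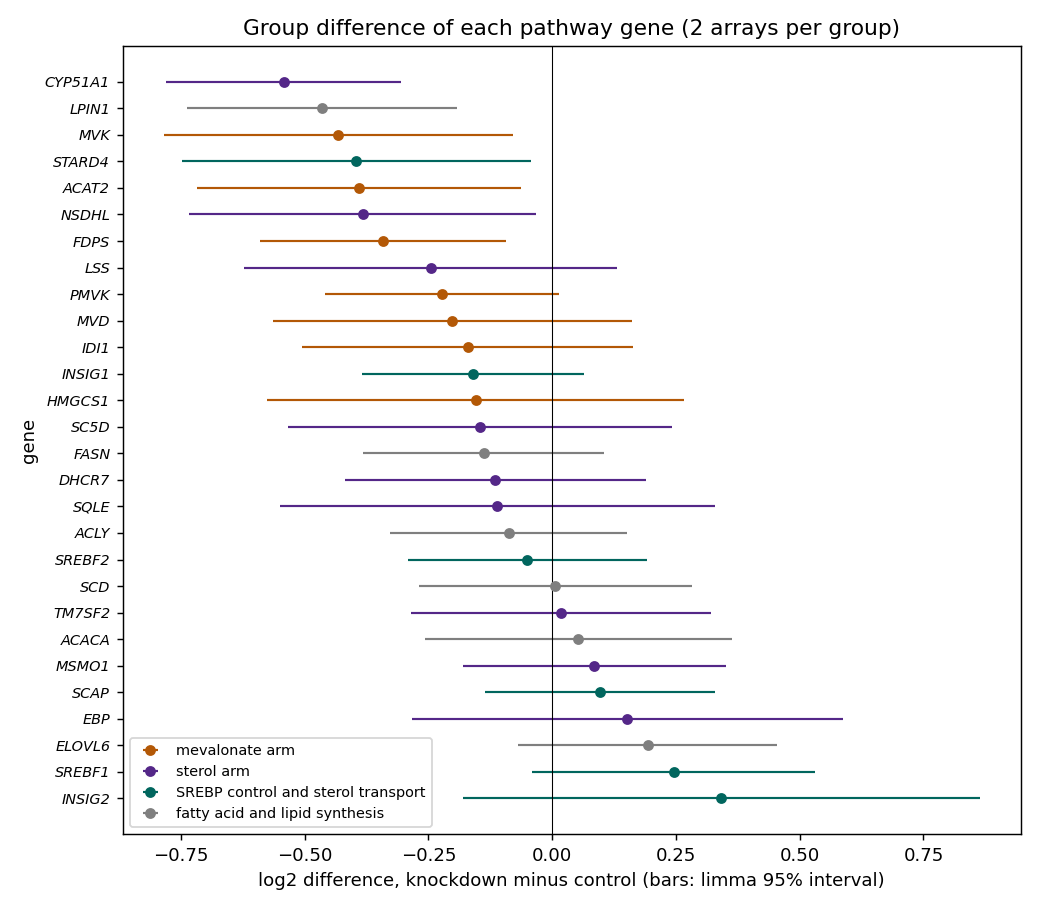
Group difference (log2, knockdown minus control) of each of the 28 genes with limma's 95% interval, coloured by role, from 2 arrays per group. The intervals of 7 genes lie wholly below 0 and none lies wholly above 0. The same holds below and above 0 for 8.04% and 6.25% of all genes (12.3% and 7.04% in the members' range of level). None of the 28 genes passed after adjustment over all genes.

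The median group difference of the fatty acid genes was -0.041, against -0.11 in the sterol arm. Single genes did not follow this order, as LPIN1 and ELOVL6 lay further from their controls than several sterol genes. This contrast was not tested. LPIN1, the phosphatidate phosphatase of glycerolipid synthesis, read 7.31 and 7.33 in the controls, 6.74 in knockdown replicate 1 and 6.97 in replicate 2. Both arrays lay clearly below both controls (log2 difference -0.46, SE 0.112, limma adjusted p = 0.175). ACLY, which supplies cytosolic acetyl-CoA, and FASN, the fatty acid synthase, also lay below both controls in both arrays, but by little, at -0.088 and -0.14. ACLY read 10.12 in knockdown replicate 2, as it did to 2 decimals in control replicate 2. ACACA, which makes malonyl-CoA, and SCD, the desaturase of stearoyl-CoA, lay below the controls in replicate 1, at -0.10 and -0.11 from the control mean, and above them in replicate 2, at 0.21 and 0.12. ELOVL6, an elongase of saturated fatty acids, went the other way, at 7.69 and 7.59 in the controls, 7.92 in replicate 1 and 7.75 in replicate 2 (log2 difference 0.19, SE 0.108, limma adjusted p = 0.476). The median difference of these 6 genes from the control mean was -0.12 in replicate 1 and 0.030 in replicate 2.

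A further 59 genes of neighbouring pathways, in 4 lists, were set beside the members, and 53 were measured. None passed over all genes in limma, while 2 were lower and 5 higher at an unadjusted p under 0.05, which is 3.77% and 9.43%, against 8.04% and 6.25% of all genes. In the list of other sterol and isoprenoid genes, 9 of 10 measured genes had negative differences (48.0% of all genes), the list's median was -0.11, and 0 reached an unadjusted p under 0.05. The median from the control mean was -0.17 in knockdown replicate 1 and -0.12 in replicate 2. Of these 10 genes, 6 lay below both controls in replicate 1 and 7 in replicate 2 (37.4% and 40.1% of all genes). In the list of other fatty acid and triglyceride genes, 14 of 20 differences were positive and 3 reached an unadjusted p under 0.05, all higher (6.25% of all genes). MLXIPL, which encodes the glucose-responsive lipogenic factor ChREBP, read 6.86 and 6.79 in the controls, 7.45 in replicate 1 and 7.73 in replicate 2 (log2 difference 0.76, SE 0.124, limma adjusted p = 0.0987). ACSL4, an acyl-CoA synthetase for polyunsaturated fatty acids, lay at 0.47 (SE 0.103) and ELOVL5, an elongase of such acids, at 0.36 (SE 0.115).

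Among 11 measured genes of SREBP proteolysis and turnover, 2 were lower at an unadjusted p under 0.05 (8.04% of all genes) and none higher. SPRING1, a Golgi protein needed for activity of the site-1 protease, read 9.00 and 8.95 in the controls, 8.31 in knockdown replicate 1 and 8.50 in replicate 2 (log2 difference -0.57, SE 0.107, limma adjusted p = 0.128). VCP, the segregase that pulls proteins out of the membrane, lay at -0.27 (SE 0.101). MBTPS1 and MBTPS2, the site-1 and site-2 proteases, lay at 0.037 and 0.053. Among 12 measured genes of sterol efflux, storage and the LXR pathway, 2 were higher (6.25% of all genes) and none lower at that threshold. LPCAT3, a lysophospholipid acyltransferase induced by LXR, read 9.94 and 10.04 in the controls and 10.41 and 10.45 in the knockdown arrays (log2 difference 0.45, SE 0.0963, limma adjusted p = 0.148). ABCA1, the cholesterol exporter, read 7.18 and 7.19 in the controls, 7.48 in replicate 1 and 7.74 in replicate 2 (0.42, SE 0.118, limma adjusted p = 0.214).

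**Figure D4:**
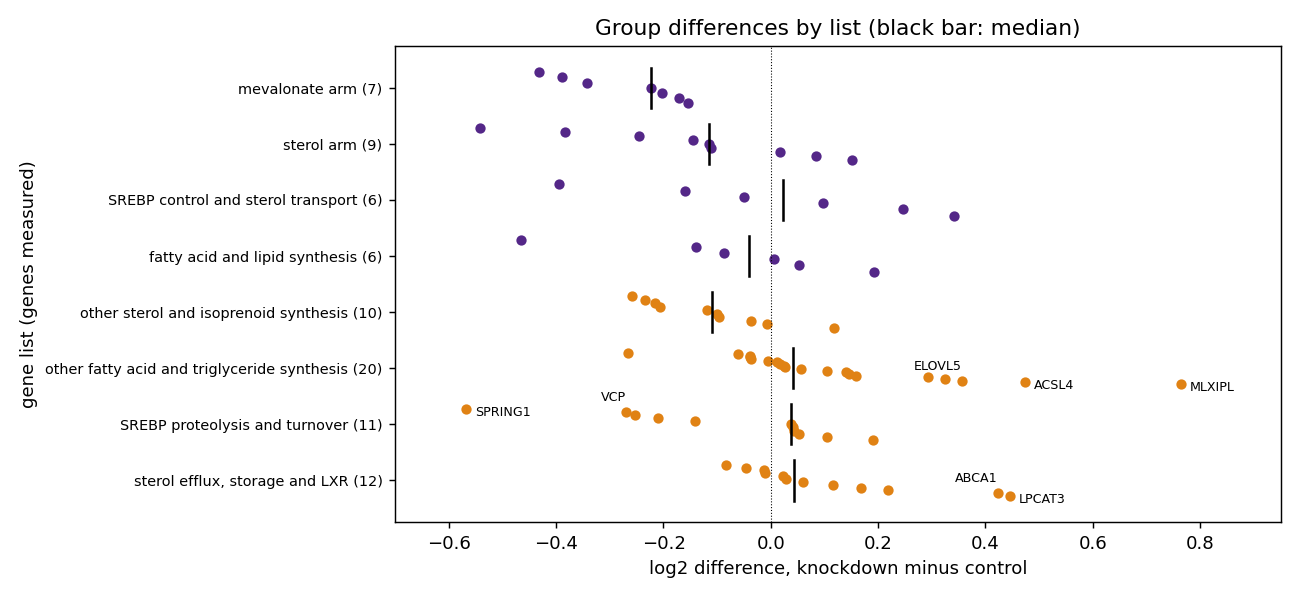
Group differences (log2, knockdown minus control) of the 28 pathway genes by role (upper 4 lists) and of 53 genes of neighbouring pathways (lower 4 lists), each point a gene and each black bar a list median. The mevalonate arm has the lowest median (-0.22), and the named points are genes at an unadjusted p under 0.05.

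The number of members under the threshold depends on the arrays used. With 1 knockdown array left, a gene's own spread comes from the 2 control arrays alone, which are close, and the lone array is assumed to vary like them. Without knockdown replicate 2, 3 members fell under an adjusted p of 0.05 over all genes in limma on that basis, namely MVK, LPIN1 and ACAT2 (adjusted p = 0.0369, 0.0419 and 0.0444, against up to 1.0 over their other settings), when 2.4% of all genes were called lower, and 14 members were lower at an unadjusted p under 0.05 (13.0% of all genes). Without knockdown replicate 1, none passed, and CYP51A1, FDPS and LPIN1 were lower and EBP, INSIG2 and SREBF1 higher at an unadjusted p under 0.05 (9.33% and 9.02% of all genes). CYP51A1 and LPIN1 were the 2 members lower at that threshold in each of the 4 sets of 3 arrays, also without control replicate 1 (2.45% of all genes) and without control replicate 2 (3.67%). CYP51A1 ranged from -0.67 to -0.49 and LPIN1 from -0.58 to -0.35 over all settings.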

How the data were processed

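Total RNA of 4 HuH7 samples was hybridised to 1-colour whole-transcript arrays. The authors deposited log2 values for 33297 probes, with array medians of 5.68 to 5.73. The log2 scale was inferred from their range (1.03 to 13.65). Partek is named in the submitters' processing notes, but how the background was corrected and the values normalized is not given in the sources used here. Groups and replicate numbers came from the sample titles. Probes were named from the platform annotation, with symbols updated through Entrez identifiers (19429 of 19460 single-gene probes found in RefSeq, GRCh38.p14), giving 18417 genes. Dim genes were kept, as the values come without detection calls.

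The group comparison used lmFit and eBayes of the limma package (version 3.58.1, R 4.3.3; two-sided, 2 residual and 4.12 prior degrees of freedom), with Benjamini-Hochberg adjustment over all genes. Errors are limma's moderated SEs. The script was tested on simulated data. The members and lists were chosen with earlier results of these data known. Values of every array are given for the 12 members with the smallest p, the 4 others with the largest gap between knockdown arrays, the control proteins, and some further members, and up to 3 genes per neighbouring list at an unadjusted p under 0.05. Alternatives changed the normalization, the filter, the probes, the moderation, the threshold, the block and the arrays.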

Additional observations from a re-analysis of the deposited data

How the results depend on the processing

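No member passed an adjusted p of 0.05 in limma under any alternative except without knockdown replicate 2, where the 2 close control arrays alone give the spread, so the count ran from 0 to 3 over the sets of 3 arrays. In those sets 2 to 14 members were lower and 0 to 3 higher at an unadjusted p under 0.05, and the members' median ran from -0.246 to 0.006. With quantile normalization 1 member, SREBF1, was higher at that threshold, as were 6.69% of all genes. Over all genes, limma called 17 lower and 15 higher in the main comparison. It called 27 lower with quantile normalization, 27 lower without the dimmest 40% of genes, 28 and 23 with robust moderation, 78 and 66 at an adjusted p of 0.1, and 0 and 0 when all probes were fitted (1915 and 1571 at an unadjusted p under 0.05). With the replicate number as a block it called 38 lower and 55 higher, and still 0 members. The same 7 members were then lower at an unadjusted p under 0.05 (7.03% of all genes). No label says that a number marks a shared day. The deviations of same-numbered arrays correlated at -0.0669 over genes. With 2 arrays per group this value cannot tell whether same-numbered arrays shared a day. Over the sets of 3 arrays the calls ran from 0 to 442 lower and 0 to 339 higher, with 0 without either control (866 and 1219 genes at an unadjusted p under 0.05). The causes were not tested.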
